A study of Rattus norvegicus with 9 samples.

Results

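The genes that decide whether a cell dies, 40 in number, were followed in a rat model of kidney donation after circulatory death: the BCL2 family, caspases, their inhibitors, death receptors with their adaptors, and the genes of necroptosis and pyroptosis. They were chosen by name, as every gene probe of the array files whose gene name was on a list of 40, and all 40 were found among 26115 gene names. They were read by 55 probes, 29 genes by 1 probe and 11 by several. A gene was tested where a probe was brighter than the negative controls on at least 4 arrays (the threshold is given under the processing), which 34 of the 40 passed, of 13928 genes tested in all.

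RNA of whole kidney was hybridised on 9 single-colour Agilent arrays, 5 of not perfused kidneys (NP) and 4 of MSC-perfused kidneys (MSC). The study had discarded a further MSC array for poor quality. All kidneys came from Fisher F344 rats and had 20 min of warm ischaemia before nephrectomy. MSC kidneys were then perfused for 4 h at 4°C with Belzer solution, a cold preservation fluid, carrying 3000000 mesenchymal stromal cells grown from bone marrow of transgenic Sprague Dawley rats that express EGFP. NP kidneys went into RNA preservative after ischaemia, so perfusion itself and the cells cannot be told apart in MSC against NP. The treatment label of the NP arrays says not perfused, while their titles name a perfusion with Belzer solution, and the treatment label and the study's methods were followed. The age of the rats is not given in the sources used here. Nothing in the labels states which animal each kidney came from, so p-values measure the spread between these arrays, whose number limits the precision.

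The arrays lay on 2 slides, NP 1 to 3 with MSC 1 and 2 on the first and NP 4 and 5 with MSC 3 and 4 on the second, so differences are also given within each slide where they bear on a result. The share of gene spots well above background ran from 65.6% to 74.3%. All 6 proximal tubule markers passed the filter, and the log2 of their summed intensity was 19.53 to 19.86 in NP and 19.81 to 19.96 in MSC. Sums of the other marker lists were taken the same way, so the brightest genes weigh most in them. NP 2 stood apart from the other NP arrays for several cell death genes, and values without it are given beside many of them.

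Apoptosis is an orderly death that runs through mitochondria or through receptors at the cell surface. In the mitochondrial route BH3-only proteins release BAX and BAK from survival proteins such as BCL2 and MCL1, the outer membrane is opened, cytochrome c joins APAF1 in the apoptosome, and caspase-9 is activated. Necroptosis, driven by RIPK1, RIPK3 and MLKL, and pyroptosis, driven by inflammatory caspases that cut gasdermin D, burst the cell. These routes are known from tubule cells of ischaemic kidneys, and much of their control lies in protein cutting and binding that an RNA array does not see.

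The probes that the results turn on are shown by their first 30 bases of 60, as given in the array files, with the whole probe's position on the rat build rn4. Capitals mark the start codon of Bcl-xL in the first Bcl2l1 probe and, in the other Bcl2l1 probes, bases of a run of 52 that both hold.
Bak1, probe A_43_P12940 (chr20:5256042-5256101, minus strand): tggggggtgtttttctctgtcttgcacaac
Bax, probe A_64_P015183 (chr1:95932895-95932954, minus strand): aacggggaaaggcatttttcttacttttgt
Bax, probe A_43_P11800 (no position in the files): tggagatgaactggacaataatatggagct
Mcl1, probe A_44_P101211 (an unplaced piece of chromosome 2, minus strand): ccatggaggacttctagaatgaatgaaaag
Bcl2l2, probe A_44_P550346 (chr15:32987930-32987989, plus strand): gccaagttcatttgacttttatttttgtgt
Casp4, probe A_44_P1028549 (chr8:2075044-2075103, plus strand): caacaatcatttgaaaaggcaagtattaat
Aifm1, probe A_64_P062801 (chrX:134868895-134868954, minus strand): gcaggaatcgaacaagcctctgtgaatatt
Bcl2l1, probe A_44_P548065 (chr3:143178503-143178562, minus strand): ATGtctcagagcaaccgggagctggtggtt
Bcl2l1, probe A_64_P008047 (chr3:143129096-143129153, minus strand): ctttgaAATAGTTTGTGTGAAGGTGAAAGT
Bcl2l1, probe A_64_P054735 (chr3:143129088-143129147, minus strand): AATAGTTTGTGTGAAGGTGAAAGTGCAGTT
Ripk1, probe A_44_P156830 (chr17:37185923-37185982, minus strand): ggcttcactgagtctcagatcgacgaaatc
Ripk1, probe A_42_P722994 (chr17:37184053-37184112, minus strand): ctggttttggaattgcagtagcaatcgggg

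No cell death gene passed a false discovery rate (FDR, the adjusted p of limma over all genes) of 0.05, and neither did any gene of the array, 0% of 13928. With array weights 2 genes of the array passed, neither of them a cell death gene. The lowest FDR of the 34 genes was 0.335. At an unadjusted limma p under 0.05, Casp4 and Mcl1 were higher in MSC, 5.88% of the 34 beside 6.59% of all genes tested. Bak1 alone was lower at that p, 2.94% of the 34 beside 5.12% of all genes. Every MSC array lay above every NP array for Aifm1, 1 gene of 34 (2.94%) beside 3.13% of all genes, and below for Bak1 and Bcl2l2, 2 of 34 (5.88%) beside 2.15%. The shares in the first 3 counts were under those of all genes. The median log2 difference, MSC minus NP, was -0.09 over the 34 genes, which ran from -0.43 to 0.39, and -0.01 over all genes. It was negative in 22 of the 34 (64.7%) and in 51.4% of all genes.

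**Figure D1:**
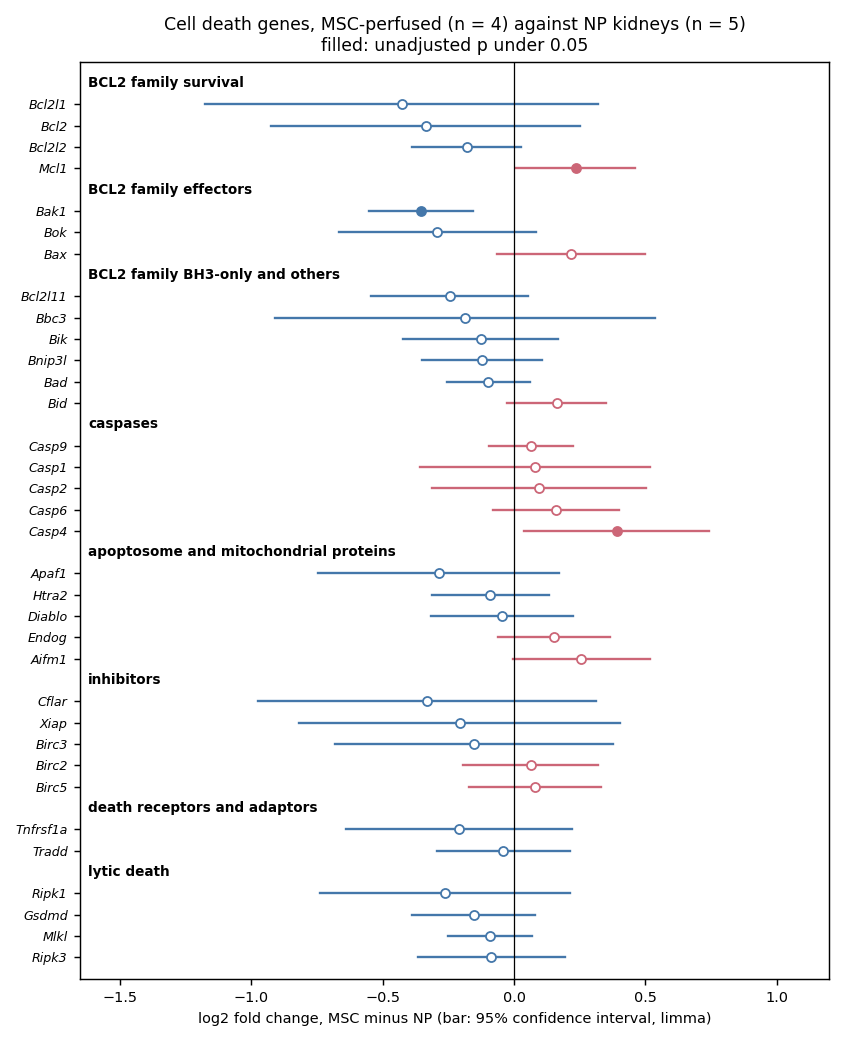
The log2 difference, MSC minus NP, of each of the 34 genes tested, in order of role, with points for the estimate and bars for its 95% confidence interval from limma (n = 5 NP and 4 MSC). Red stands for positive and blue for negative differences, filled points mark unadjusted p under 0.05, and the intervals of Bak1, Casp4 and Mcl1 alone leave out 0.

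Of the effectors, the proteins that form the pore in the outer mitochondrial membrane, Bak1 was lower in MSC and both probes of Bax were higher on average. Bak1 read 12.47, 12.44, 12.50, 12.32 and 12.29 (log2 intensity) in NP 1 to 5 and 12.23, 11.98, 12.08 and 11.91 in MSC 1 to 4. No MSC array reached the lowest NP array. The difference was -0.35 ± 0.09 (SE), a ratio of 0.782, with unadjusted p = 0.0026 and FDR = 0.335 in limma. An exact two-sided permutation test gave p = 0.00794, the smallest that splits of the arrays into 5 and 4 allow. Within the slides Bak1 differed by -0.36 and -0.31.

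Bax was read by 2 probes. The probe that varied more, kept for the gene, read 12.55, 12.85, 12.40, 12.59 and 12.48 in NP and 12.63, 12.84, 12.59 and 13.09 in MSC, and the groups overlapped. Its difference was 0.22 ± 0.13 (unadjusted p = 0.119 in limma, FDR = 0.528). It was 0.12 without MSC 4, and 0.29 without NP 2, where the unadjusted limma p was 0.0378. The other Bax probe, A_43_P11800, read 11.02, 10.91, 10.75, 11.01 and 10.99 in NP and 11.15, 11.14, 11.18 and 11.27 in MSC, every MSC array above every NP array. That probe differed by 0.25, with unadjusted p = 0.0108 and FDR = 0.334 in limma over all probes. Its exact permutation p was 0.00794, and it differed by 0.25 and 0.22 within the slides. With the probes of a gene averaged, Bax had unadjusted p = 0.029, so its place depends on which probe stands for it. Bok, a BAX relative found in the endoplasmic reticulum, differed by -0.29 ± 0.17 (FDR = 0.524), by -0.56 within the first slide and by 0.00 within the second. A second Bok probe differed by -0.03 (FDR = 0.961). The kept probe differed by -0.41 without MSC 4, with an unadjusted limma p of 0.0371, and by -0.12 without MSC 2.

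**Figure D2:**
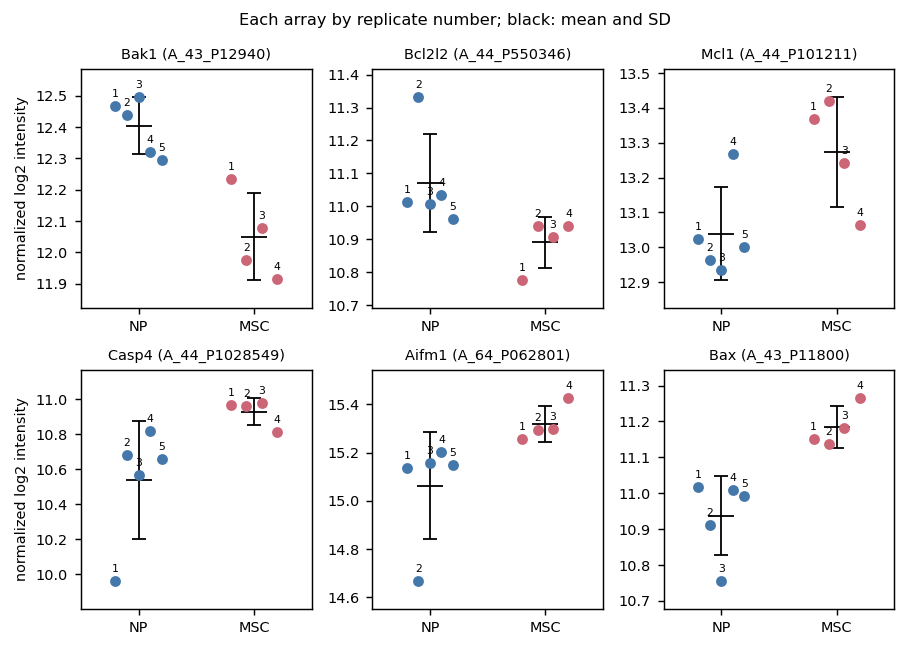
Log2 intensity on each of the 9 arrays for the probes that the results turn on, with numbered points for arrays (blue NP, red MSC) and black lines for each group's mean and SD. Bak1 lies lower on every MSC array than on any NP array, and the Bax probe A_43_P11800 and Aifm1 lie higher.

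Among the 4 survival genes of the BCL2 family, 1 was higher in MSC at limma p under 0.05 and 3 had negative differences that did not pass it. Mcl1, a short-lived survival protein of the mitochondrial membrane, read 13.02, 12.96, 12.93, 13.27 and 13.00 in NP and 13.37, 13.42, 13.24 and 13.06 in MSC. NP 4 lay among the MSC arrays, and MSC 4 lay among the NP arrays. The difference was 0.23 ± 0.10 (unadjusted p = 0.0442, FDR = 0.418 in limma; exact permutation p = 0.0556). It was 0.42 on the first slide and 0.02 on the second, and with the slide as a block its unadjusted p was 0.051. Mcl1 kept p under 0.05 when NP 4 or MSC 4 was left out and lost it without any other single array (unadjusted limma p from 0.0642 to 0.130). The difference where it was lost stayed at 0.186 to 0.245.

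Bcl2l2, which encodes the survival protein BCL-W, read 11.01, 11.33, 11.01, 11.04 and 10.96 in NP and 10.78, 10.94, 10.91 and 10.94 in MSC. The highest MSC array lay just under the lowest NP array. The difference was -0.18 ± 0.09 (unadjusted p = 0.0825, FDR = 0.481 in limma, exact permutation p = 0.0159). It was -0.26 and -0.07 within the slides, and -0.11 without NP 2. Bcl2, the founding survival gene, was 9.64 ± 0.51 in NP (SD, n = 5) and 9.30 ± 0.37 in MSC (SD, n = 4), with a difference of -0.34 ± 0.26 (FDR = 0.638), which became -0.12 without NP 2. Bcl2l1, which encodes Bcl-xL, read 9.45, 11.16, 10.25, 9.57 and 9.62 in NP and 9.55, 9.98, 9.14 and 9.65 in MSC at the probe over the start codon. The difference there was -0.43 ± 0.34 (FDR = 0.638), the most negative of the 34, and -0.14 without NP 2. The probes that share 52 bases were brighter, with NP means of 16.01 and 16.31, and differed by -0.16 and -0.12. Another Bcl2l1 probe did not pass the filter.

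Of the 8 BH3-only and related genes, 6 were tested, and none passed p under 0.05 in limma. Of the 6 differences 5 were negative, with a median of -0.12. Bid, which carries the signal of death receptors to mitochondria, was the positive one. It read 9.06, 8.92, 8.98, 9.03 and 9.11 in NP and 9.36, 9.14, 9.19 and 9.04 in MSC. The difference was 0.16 ± 0.08 (unadjusted p = 0.082 in limma, exact permutation p = 0.0476). MSC 4 alone lay among the NP arrays, and the difference was 0.26 on the first slide and 0.05 on the second. It was 0.21 without MSC 4, with an unadjusted limma p of 0.0417, and 0.10 without MSC 1. With the scanner's processed signal Bid differed by 0.33, with an unadjusted limma p of 0.0184, and the groups did not overlap. Bcl2l11, which encodes BIM, differed by -0.25 ± 0.13 (FDR = 0.503), by -0.13 without MSC 3 and by -0.54 with the processed signal. With the slide as a block its unadjusted limma p was 0.0355. Bbc3, the p53 target PUMA, differed by -0.19 ± 0.32 (FDR = 0.853) and followed the slide in NP, at 10.61, 10.58 and 9.94 on the first and 11.52 and 11.57 on the second. Its difference was 0.03 on the first slide and -0.64 on the second, -0.61 with array weights, and ran from -0.41 without NP 3 to -0.0047 without NP 5. Bad, Bik and Bnip3l, a mitophagy receptor of the family, differed by -0.10, -0.13 and -0.12, and Bnip3l by -0.06 without NP 2. Bik ran from -0.24 without MSC 4 to -0.015 without MSC 1, and differed by -0.37 and 0.12 within the slides. Bcl2l13 and Pmaip1, which encodes NOXA, did not pass the filter.

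All 5 caspases tested had positive differences, from 0.06 to 0.39, though Casp1 and Casp2 turned negative with array weights or with 1 array left out. Of the 5, 1 was higher at p under 0.05. Casp4, the inflammatory caspase that binds bacterial lipopolysaccharide inside cells, read 9.96, 10.68, 10.57, 10.82 and 10.66 in NP and 10.96, 10.96, 10.98 and 10.81 in MSC. NP 4 overlapped MSC 4, and NP 1 was the lowest. The difference was 0.39 ± 0.16 (unadjusted p = 0.0328, FDR = 0.398 in limma; exact permutation p = 0.0238). It was 0.25 without NP 1, and 0.56 and 0.15 within the slides. Casp4 lost p under 0.05 when NP 3, MSC 1, MSC 2 or MSC 3 was left out (unadjusted limma p from 0.0501 to 0.0686), while the difference there stayed at 0.375 to 0.399.

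Casp4 and Casp1 are rich in leukocytes, of which 7 of 9 markers passed the filter, while Cd3e, a marker of T cells, was among those that did not. The log2 of their summed intensity was 16.53 to 17.22 in NP and 16.84 to 17.33 in MSC. Lyz2 and Cd74, with NP means of 15.73 and 15.87, made up most of that sum. Ptprc, the common leukocyte antigen, differed by 0.22 (FDR = 0.613), and the granulocyte genes S100a8 and S100a9 by -0.85 (FDR = 0.396) and -0.95 (FDR = 0.421). The red cell list, 2 genes, summed to 13.87 to 15.15 in NP and 10.54 to 14.61 in MSC. Fat markers, of which 4 of 6 passed the filter, summed to 12.98 to 13.39 in NP and 13.04 to 15.12 in MSC, with Adipoq at 1.43 (FDR = 0.354). The stromal genes tested went opposite ways, Col1a1 by 1.06 (FDR = 0.335) and Pdgfrb by -0.21 (FDR = 0.809). The part of these cells in the Casp4 difference was not tested, and fewer cells of a type cannot be told apart from less RNA per cell in whole tissue.

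Casp1, the caspase of the inflammasome, ran from 9.11 to 10.02 in NP and from 9.53 to 10.21 in MSC, with a difference of 0.08 ± 0.20 (FDR = 0.902). Casp9, the initiator activated on the apoptosome, differed by 0.06 ± 0.07 (FDR = 0.754), Casp6, an executioner, by 0.16 (0.08 without NP 2) and Casp2 by 0.10. Over the alternative settings Casp2 ran from -0.11 to 0.38. Casp8, the initiator downstream of death receptors, did not pass the filter.

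Of the 5 apoptosome and mitochondrial genes none passed p under 0.05 in limma. Aifm1, a flavoprotein of the respiratory chain's assembly that moves to the nucleus in caspase-independent death, read 15.14, 14.67, 15.16, 15.20 and 15.15 in NP and 15.26, 15.30, 15.30 and 15.43 in MSC. All MSC arrays lay above all NP arrays, 4 of which lay within 0.1 of each other and NP 2 well under them. The difference was 0.26 ± 0.12 (unadjusted p = 0.0522, FDR = 0.432 in limma; exact permutation p = 0.0159), 0.16 without NP 2, and 0.29 and 0.19 within the slides. Without NP 4 it was 0.29, with an unadjusted limma p of 0.0442. With the authors' deposited values the unadjusted limma p was 0.0481. Of the 6 proximal tubule markers 4 had positive differences, with Slc5a2, the glucose carrier, at 0.44 (FDR = 0.335), and their part in the Aifm1 difference was not tested.

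Endog, a mitochondrial nuclease, differed by 0.15, was also lowest in NP 2 and differed by 0.08 without it. Diablo and Htra2, which free caspases from their inhibitors once released, differed by -0.05 and -0.09, and Htra2 ran from -0.15 without MSC 3 to -0.04 without MSC 4. Apaf1, the scaffold of the apoptosome, read 9.04, 10.15, 9.28, 9.33 and 9.23 in NP and 8.92, 9.14, 9.03 and 9.38 in MSC, a difference of -0.29 ± 0.21 (FDR = 0.605) that became -0.10 without NP 2. A second Apaf1 probe, under the filter, read 8.69 to 8.85 in NP and 8.52 to 8.67 in MSC, with no overlap.

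The 5 inhibitors had 2 positive and 3 negative differences, and none passed p under 0.05. Xiap, the direct inhibitor of caspases, read 8.24, 9.91, 9.23, 9.04 and 8.88 in NP and 8.65, 9.11, 8.73 and 8.93 in MSC. The difference was -0.21 ± 0.27 (FDR = 0.795) and 0.01 without NP 2, and -0.78 with the processed signal scaled to the 75th percentile. Cflar, which encodes the caspase-8 decoy FLIP, read 12.73, 14.41, 13.09, 13.15 and 13.12 in NP and 12.70, 13.12, 13.03 and 13.03 in MSC. The difference was -0.33 ± 0.29 (FDR = 0.67) and -0.05 without NP 2, and the other Cflar probes differed by -0.17 and -0.25. Birc2 and Birc3, ubiquitin ligases of TNF signalling, differed by 0.06 and -0.15, and Birc3 by -0.05 without NP 2. Birc5, the mitotic protein survivin, differed by 0.08 (FDR = 0.81) beside a dividing cell list that summed to 12.10 to 12.75 in NP and 12.31 to 12.82 in MSC.

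**Figure D3:**
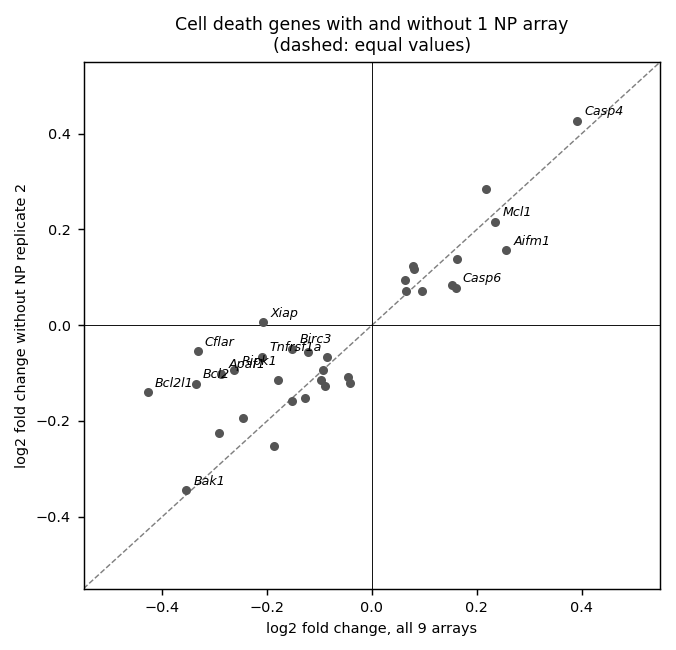
The log2 difference, MSC minus NP, of each gene tested with all 9 arrays and without NP 2. Points off the diagonal moved, and Bcl2l1, Cflar, Xiap, Bcl2 and Apaf1 came nearer to 0 while Bak1 stayed at -0.35.

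Without NP 2 the median over the 34 genes was -0.07. NP 2 was, among others, the highest NP array for Bcl2, Bcl2l1, Bcl2l2, Apaf1, Xiap, Cflar, Ripk1 and Tnfrsf1a, and the lowest for Aifm1, Endog and Casp6. With any 1 of the 9 arrays left out in turn, 29 of the 34 differences moved by over 1.5 times or changed sign, and Bak1, Mcl1, Bad, Casp9 and Mlkl did not.

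**Figure D4:**
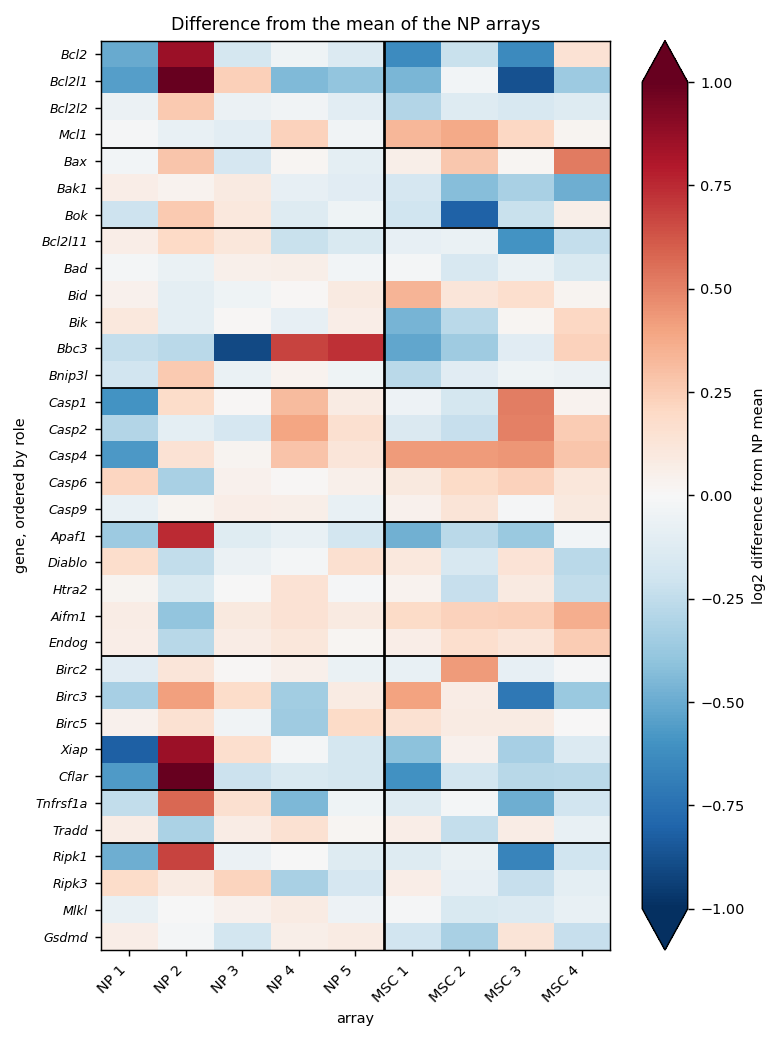
The log2 intensity of each gene on each array as its deviation from the NP mean, with genes ordered by role and arrays by group, red above and blue below that mean, and the colours capped at 1. The NP 2 column stands out with high Bcl2, Bcl2l1, Apaf1, Xiap and Cflar and low Aifm1, Endog and Casp6.

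Of the 5 death receptor genes, 2 passed the filter. Tnfrsf1a, the main TNF receptor, ran from 12.72 to 13.75 in NP and from 12.68 to 13.15 in MSC, with a difference of -0.21 ± 0.19 (FDR = 0.689), -0.07 without NP 2. Tradd, its adaptor, differed by -0.04 at the kept probe and by 0.11 at another. Fas and its ligand Faslg, and Fadd, the adaptor that recruits caspase-8, did not pass. Fas read 8.06 to 8.33 in NP at its brighter probe and 8.18 to 8.25 in MSC, under the filter on all arrays, so a difference between groups was not detectable at this signal. Fadd read 8.28 to 8.43 in NP and 8.38 to 8.57 in MSC, and it was higher at p under 0.05 when the scanner's processed signal was used and all 40 genes were tested.

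All 4 genes of lytic death had negative differences at the kept probes, though Ripk3 turned positive with array weights, and none passed p under 0.05. Ripk1, the kinase at the branch between survival and death, read 9.59, 10.75, 10.01, 10.07 and 9.95 in NP and 9.94, 10.01, 9.42 and 9.88 in MSC at the kept probe, a difference of -0.26 ± 0.21 (FDR = 0.649), -0.09 without NP 2. The second Ripk1 probe read 10.39, 10.39, 10.43, 10.51 and 10.49 in NP and 10.73, 10.63, 10.48 and 10.55 in MSC. Its difference was 0.15 (unadjusted p = 0.0691 in limma, exact permutation p = 0.0317). The probes thus gave opposite signs, and neither passed p under 0.05 in limma. Ripk3, the kinase that activates MLKL, differed by -0.09 ± 0.13 (FDR = 0.817), and Mlkl, the protein that breaches the membrane, by -0.09 ± 0.07 (FDR = 0.633). Ripk3 ran from -0.17 without NP 4 to -0.03 without NP 3 and was 0.08 within the second slide. Gsdmd, the pore of pyroptosis, ran from 12.06 to 12.33 in NP and from 11.92 to 12.37 in MSC and differed by -0.15 ± 0.11 (FDR = 0.584). It was -0.25 without MSC 3, with an unadjusted limma p of 0.0265, and -0.10 without MSC 2.

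**Figure D5:**
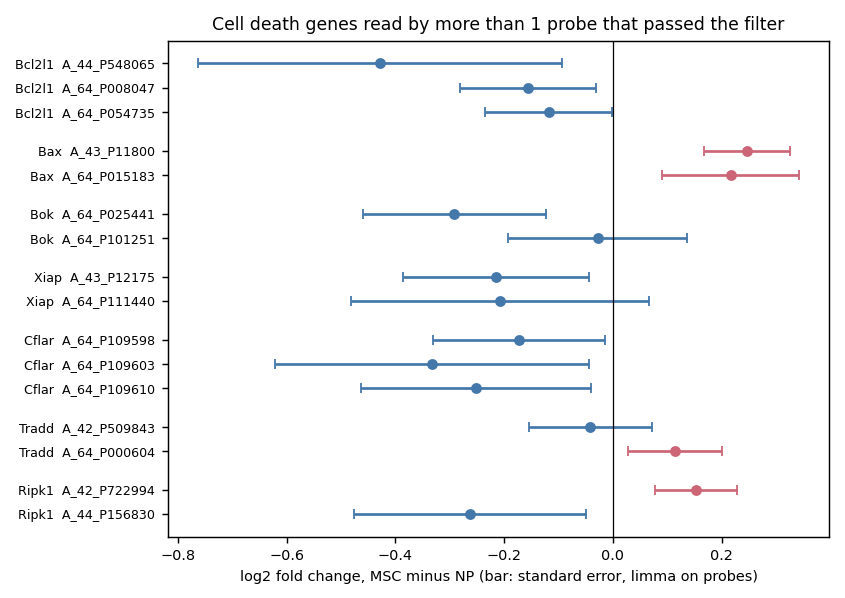
The log2 difference, MSC minus NP, at each probe that passed the filter for genes read by more than 1 such probe, with bars for the standard error, red for positive and blue for negative differences. Ripk1 and Tradd have probes on both sides of 0, while both Bax probes lie above it and all Cflar and Bcl2l1 probes below.

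Of 63 other genes of these pathways, 62 were on the array and 39 were tested. At p under 0.05, 3 were higher in MSC (7.69% of the 39, beside 6.59% of all genes) and 1 lower (2.56%, beside 5.12%), and none passed the FDR, the lowest of which was 0.382. Cycs, cytochrome c, differed by 0.32 (FDR = 0.391) and Traf2, an adaptor of TNF receptors, by 0.22 (FDR = 0.382). Tnfrsf21, the death receptor DR6, was the lower one, at -0.30 (FDR = 0.408). The 39 differences split into 18 positive and 21 negative with a median of -0.02. Bcl2l12 alone of them had groups that did not overlap (2.56%, beside 2.15% of all genes), lower in MSC by -0.17 (FDR = 0.455). Tnf itself differed by -0.29 (FDR = 0.443) and Il1b, the cytokine that pyroptosis releases, by 0.49 (FDR = 0.639).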

How the data were processed

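Whole-kidney RNA of 5 NP and 4 MSC kidneys was measured on single-colour Agilent arrays. The deposited intensity values are mean pixel signals from Agilent Feature Extraction 10.7.3.1, not background-subtracted. The authors' deposited log2 table was used as an alternative. Its values correlated with those made here at r of 0.999899 or more on every array. No column of values per sample was left unused.

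Here log2 intensity was normalized by cyclic loess over gene and negative control spots, outlier-flagged spots were then dropped, spots of a probe were averaged, and probes were kept whose log2 value was over 1.1 times the 95th percentile of the negative controls on at least 4 arrays (15833 probes). The probe with the largest variance stood for its gene. MSC minus NP was fitted with limma 3.58.1 in R 4.3.3, with Benjamini-Hochberg adjustment over 13928 genes, and single genes were also tested by exact two-sided permutation. The fit was tested on simulated data. Alternatives covered signal, normalization, filter, probe choice, slide, replicate number and each array left out. Within-slide values are differences of group means with no test.

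The members and lists were chosen with earlier results of these data known. Genes are named where p was under 0.05, where the groups did not overlap, where probes disagreed in sign, where no probe passed, and for pivotal genes of each role. Of the 40 genes, 37 had their accession in the current RefSeq name table, and none had a changed symbol. Array coordinates are those of the files, on rn4. Promoter and protein sequences were not used here. Single genes of the pathway and marker lists that are counted but not named are not reported here.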

Additional observations from a re-analysis of the deposited data

Results flagged for a closer look

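In 8 of 68 groups (34 genes, NP and MSC apart), 1 array lay further from its neighbours than Dixon's 95% critical value allows. Chance flags about 1 in 20 groups, or 3.4 of 68. The value given is the gap to the nearest array over the whole range of the group. NP 2 was the array in 5 of the 8. It was high for Bcl2l2 (0.799), Apaf1 (0.742) and Cflar (0.753), and low for Aifm1 (0.877) and Endog (0.743). NP 4 was high for Mcl1 (0.732). In the MSC group, MSC 4 was low for Casp4 (0.913) and MSC 2 high for Birc2 (0.873).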

How the results depend on the processing

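No cell death gene passed an FDR of 0.05 in any of 27 alternative fits, and the lowest FDR of a gene of the list was 0.1525, for Bak1. The number higher in MSC at p under 0.05, 2 as reported, was 4 with the processed signal scaled to the 75th percentile, with no filter and with probes averaged. It was 3 with median pixel intensity, the processed signal, a linear-scale filter, spots well above background on at least 4 arrays, a limma variance trend and the authors' deposited values. It was 1 with quantile normalization, 75th percentile scaling, median scaling, the slide as a block and the replicate block. With 1 array left out it ran from 0 to 3. The number lower, 1 as reported, was 2 with the slide as a block and ran from 1 to 2 with 1 array left out. Genes with every MSC array above every NP array, 1 as reported, were 3 with the processed signal, 2 with the processed signal scaled to the 75th percentile and with probes averaged, 0 with median scaling, 4 within slide 1 and 3 within slide 2 (11.8% and 8.82% of the 34, beside 13.8% and 18.5% of all genes), and from 1 to 3 with 1 array left out. Genes below, 2 as reported, were 1 with median pixel intensity, 75th percentile scaling and median scaling, 6 within slide 1 and 10 within slide 2 (17.6% and 29.4%, beside 12% and 21.9% of all genes), and from 2 to 3 with 1 array left out. Fewer arrays within a slide make such separation easier. The median difference kept its sign throughout.

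Of the 34 genes, 24 kept their sign in all 27 fits, though Bok, Bik and Bbc3 turned within 1 slide. Signs turned for Tradd with probes averaged (0.0363), Ripk1 at its brightest probe (0.153), and with array weights for Casp1 (-0.0719), Casp2 (-0.113) and Ripk3 (0.0600). With 1 array left out, they turned for Tradd without MSC 2 (range -0.121 to 0.0238), Casp1 without NP 1 or MSC 3 (-0.0706 to 0.163), Casp2 without MSC 3 (-0.0387 to 0.205), Xiap without NP 2 (-0.412 to 0.0060), Birc5 without NP 4 (-0.0085 to 0.128), Birc2 without MSC 2 (-0.0573 to 0.111), Birc3 without MSC 3 (-0.336 to 0.0356) and Diablo without MSC 4 (-0.108 to 0.0284). The causes were not tested. Bak1 lost p under 0.05 with median scaling alone, where it differed by -0.39 (FDR = 0.840 in limma) and Bok was the gene lower at that p.

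Whether the replicate numbers pair the samples cannot be settled from so few arrays. Deviations of same-numbered arrays correlated at 0.199, 0.325, -0.349 and 0.0454, and 2 of 4 MSC arrays matched their own number best. The negative pair, NP 3 and MSC 3, lay on different slides. With the replicate block, 1 gene was higher and 1 lower at p under 0.05. With a filter on spots well above background on at least 4 arrays, 38 of the 40 genes were tested. Mcl1 kept p under 0.05 in 11 of 27 fits, Casp4 in 23 and Bak1 in 26. Aifm1, which did not pass in the reported fit, had p under 0.05 in 8.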
